A study of Mus musculus with 8 samples.

Results

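Large intergenic noncoding RNAs (lincRNAs) were followed on the 8 arrays through the probes that the array design names by a region and a strand, such as a stretch of chromosome 15 and the letter R, rather than by a gene. The members were all non-control probes whose identifier carries the prefix of this design set and whose name is an autosomal region, leaving out regions that start between 47000000 and 77000000 on chromosome 15. They were 4208 of 56605 probes (7.43%), for 3846 combinations of region and strand in 3042 regions on 19 autosomes. Of these regions, 804 carried probes on both strands and 2238 on 1 strand, with 2106 forward-strand and 2102 reverse-strand probes in all. The median region was 10326 bases long, from 62 to 538251 bases, and all 4119 probes with a mapped position lay inside their region and on its strand. A single probe stood for 3554 of the region-strand combinations, and 292 had between 2 and 6 probes. Positions are those of the array files, on mouse build mm9.

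The RNA came from C2C12 cells, a line of mouse myoblasts, at passage 10 and while they proliferated. In the silenced group (n = 4) the cells had received, by Lipofectamine 2000, LNA GapmeRs against the lncRNA Pvt1, which are antisense oligonucleotides that make RNase H cut the RNA they bind. The control group (n = 4) had received Antisense LNA GapmeR Negative Controls in the same way, so transfection and a GapmeR were common to both. The labels name the 4 samples of each group biological replicates of 1 cell line without saying how the cultures were separated, and p-values therefore measure the spread between these samples alone.

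LincRNAs are transcribed from the space between protein-coding genes, are often spliced and polyadenylated, and as a class are kept at lower levels and in fewer cell types than mRNAs. Some act on chromatin or on the transcription of their neighbours, others in the cytoplasm, and for most no role is known. Many share their start with an enhancer or with a promoter that is read in both directions, and the nuclear exosome and the Integrator complex limit how much of such RNA accumulates. In myoblasts a few lncRNAs are known to act in differentiation.

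The probe sequences that carry the results are given first, as printed on the array and in the sense of the transcript, 5′ to 3′. They comprise 5 of the 6 largest falls and the 6 largest rises among probes detected on all 8 arrays, the largest gain among probes detected on silenced arrays only, pairs of probes of the same region and strand that were called in opposite directions, and the brightest probes that held a polyadenylation signal. Capitals mark that signal, AATAAA or ATTAAA, searched on the printed strand only. Whether a probe also binds RNA from another place in the genome, such as an mRNA, was not tested. A signal is therefore that of the probe, whichever transcripts it binds.
fall 1, chr15:102966229-102966288, reverse strand: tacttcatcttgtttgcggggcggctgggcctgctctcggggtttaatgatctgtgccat
fall 2, chr14:26845272-26845331, forward strand: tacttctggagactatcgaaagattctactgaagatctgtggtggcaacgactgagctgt
fall 4, chr14:20902316-20902375, forward strand: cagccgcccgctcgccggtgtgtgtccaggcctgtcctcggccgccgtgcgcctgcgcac
fall 5, chr11:35810145-35810204, forward strand: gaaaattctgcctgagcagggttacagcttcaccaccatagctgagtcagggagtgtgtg
fall 6, chr10:117032863-117032922, forward strand: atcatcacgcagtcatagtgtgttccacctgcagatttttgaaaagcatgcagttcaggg
rise 1, chr6:121035297-121035356, reverse strand: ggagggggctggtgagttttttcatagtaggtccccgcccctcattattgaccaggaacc
rise 2, chr4:94822842-94822901, forward strand: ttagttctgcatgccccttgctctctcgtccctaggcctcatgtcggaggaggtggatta
rise 3, chr13:73479858-73479917, reverse strand: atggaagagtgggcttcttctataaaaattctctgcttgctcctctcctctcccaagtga
rise 4, chr7:86659942-86660001, forward strand: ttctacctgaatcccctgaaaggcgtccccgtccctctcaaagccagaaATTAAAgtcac
rise 5, chr5:74489547-74489606, reverse strand: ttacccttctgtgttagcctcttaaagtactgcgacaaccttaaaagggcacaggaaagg
rise 6, chr14:115440273-115440332, forward strand: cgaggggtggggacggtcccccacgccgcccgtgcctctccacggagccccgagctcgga
silenced only 1, chr11:97521272-97521331, forward strand: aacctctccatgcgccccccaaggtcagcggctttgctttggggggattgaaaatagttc
mixed pair 1, called lower, chr16:29946545-29946604, reverse strand: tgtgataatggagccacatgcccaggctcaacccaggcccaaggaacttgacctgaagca
mixed pair 1, called higher, chr16:29946617-29946676, reverse strand: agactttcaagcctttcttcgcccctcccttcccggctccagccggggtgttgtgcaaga
mixed pair 3, called higher, chr8:126278234-126278293, forward strand: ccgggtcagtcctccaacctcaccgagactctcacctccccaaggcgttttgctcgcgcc
mixed pair 3, called lower, chr8:126278354-126278413, forward strand: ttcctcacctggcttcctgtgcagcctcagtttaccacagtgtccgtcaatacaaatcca
bright 1, chr17:17482318-17482377, reverse strand: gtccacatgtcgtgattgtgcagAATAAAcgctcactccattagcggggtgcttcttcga
bright 2, chr17:48073450-48073509, forward strand: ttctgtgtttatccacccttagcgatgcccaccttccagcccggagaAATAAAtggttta
bright 3, chr11:22686751-22686810, reverse strand: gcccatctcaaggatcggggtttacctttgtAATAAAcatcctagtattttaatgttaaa

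As a check of the labels, the brightest of 5 Pvt1 probes had log2 signals of 9.65, 9.79, 10.31 and 9.70 on control arrays 1 to 4 and of 7.09, 6.69, 7.85 and 6.39 on silenced arrays 1 to 4. The groups did not overlap, with a change of -2.86 (SE 0.32, limma adjusted p 0.000682). The 8 arrays shared a slide and a scan. Silenced replicate 4 was the array with the fewest probes detected, at 34.0% of all probes well above background, against 40.0% to 43.0% on the other 7. Of 10 myoblast markers 7 were well above background on all 8 arrays, and Myf5 and Cav3 on none. Myod1, a master regulator of muscle, was called lower (change -1.95), as were Des (-1.35) and Cdh15 (-0.86), 3 of the 9 myoblast markers tested, and the summed log2 signal of the list was 16.8 to 17.02 on control and 16.2 to 16.6 on silenced arrays. Over the array 18.4% of tested probes were lower, and 20.3% of named-gene probes. Tested and not called were Pax7 (0.02), Vcam1 (0.02), Myog (0.13), Itga7 (-0.18), Ncam1 (-0.42) and, near background, Myf5 (0.94). Of Itga7 and of Ncam1, 1 other probe was lower. Of 12 hepatocyte markers 7 (Alb, Ttr, Mup1, Fgb, Ahsg, Trf and Serpina1a) were well above background on silenced arrays alone, Ttr on 3 of them and the rest on all 4, and the summed log2 signal of that list was 9.93 to 10.8 on control and 12.3 to 12.7 on silenced arrays. Over the whole array 0.152% of probes were well above background on all silenced and no control arrays. Of the other hepatocyte markers, Apoa2 was well above background on all 8 arrays and not called (change -0.15). Cyp2e1 was called higher (1.14, limma adjusted p 0.0493), and Apoa1, Fga and Apoc3 were well above background on no array. The summed signal of 6 macrophage and blood markers was 10.9 to 11.0 on control and 12.04 to 12.8 on silenced arrays, with Cd68 called higher (change 1.84), Csf1r called lower (-1.12) and Lyz2 and Hbb-b1 not well above background on any array. Ptprc and Cd3e were well above background on all 8 arrays and not called, with changes of 1.26 and 0.09 (limma adjusted p 0.0588 and 0.853). In addition, none of 4 endothelial markers was well above background on any array. Of 5 fibroblast markers, Dcn (change 2.49) and Pdgfra (0.73) were called higher, Col1a1 and Col1a2 were not called (-0.45 and 0.06) though 1 of the 4 Col1a1 probes was lower, and Thy1 was well above background on no array. Their summed signal was 15.07 to 15.6 on control and 15.6 to 15.7 on silenced arrays. The part of these cell type markers in the lincRNA results was not tested.

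The first question was how many lincRNA probes gave a signal in C2C12 cells. A probe was taken as detected where the scanner software marked it well above background. Of 4208 lincRNA probes 2593 (61.6%) were detected on no array, 605 (14.4%) on all 8 and 1010 on some. For comparison, of 29638 probes of named genes, which here are those with a RefSeq mRNA accession, 36.0% were detected on no array and 46.9% on all 8. The share of lincRNA probes detected was 23.4%, 26.1%, 25.6% and 27.3% on control arrays 1 to 4. It was 23.5%, 23.3%, 24.0% and 15.9% on silenced arrays 1 to 4. Silenced replicate 4 lay far below the others, and the other 3 silenced values lay within or just under the control range. The means were 25.6% ± 1.61 (SD, n = 4) and 21.6% ± 3.83 (SD, n = 4), a difference of -3.96 percentage points (exact two-sided permutation p 0.0857, adjusted over 4 exact tests 0.229). Without silenced replicate 4 the difference was -2.05 points. Fewer cells with a transcript and less of it per cell cannot be told apart in these bulk samples.

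The share detected among named genes moved in the same direction, from 56.1% ± 1.23 (SD, n = 4) to 53.0% ± 2.95 (SD, n = 4), with all 4 silenced arrays below all controls (exact two-sided permutation p 0.0286, the smallest that 4 against 4 arrays can give). Without silenced replicate 4 that difference of -3.07 points was -1.60 (exact two-sided permutation p 0.114). The gap between named genes and lincRNAs was 30.5 ± 0.77 points (SD, n = 4) in controls and 31.4 ± 0.96 points (SD, n = 4) in silenced cells (exact two-sided permutation p 0.2, adjusted 0.267). With the weaker flag for a signal that is positive and significant, the same gap was 17.3 to 19.7 points on control arrays and 20.4 to 26.5 points on silenced arrays, and the groups did not overlap (exact two-sided permutation p 0.0286). The gap was wider in silenced cells by 4.13 points, and by 2.67 without silenced replicate 4 (exact two-sided permutation p 0.0571). By strand, the difference in the share of lincRNA probes detected was -3.37 points for forward-strand probes (exact two-sided permutation p 0.0857) and -4.56 points for reverse-strand probes, where all 4 silenced arrays lay below all controls (exact two-sided permutation p 0.0286). Without silenced replicate 4 these were -1.58 and -2.53 points (exact two-sided permutation p 0.171 and 0.0571). The difference between the strands was not tested. Probes with a RefSeq noncoding accession (NR_) had a share of 19.2% ± 0.84 in controls and 18.6% ± 2.72 in silenced cells (SD, n = 4 each; exact two-sided permutation p 0.971), a difference of -0.57 points that was 0.79 without silenced replicate 4.

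**Figure D1:**
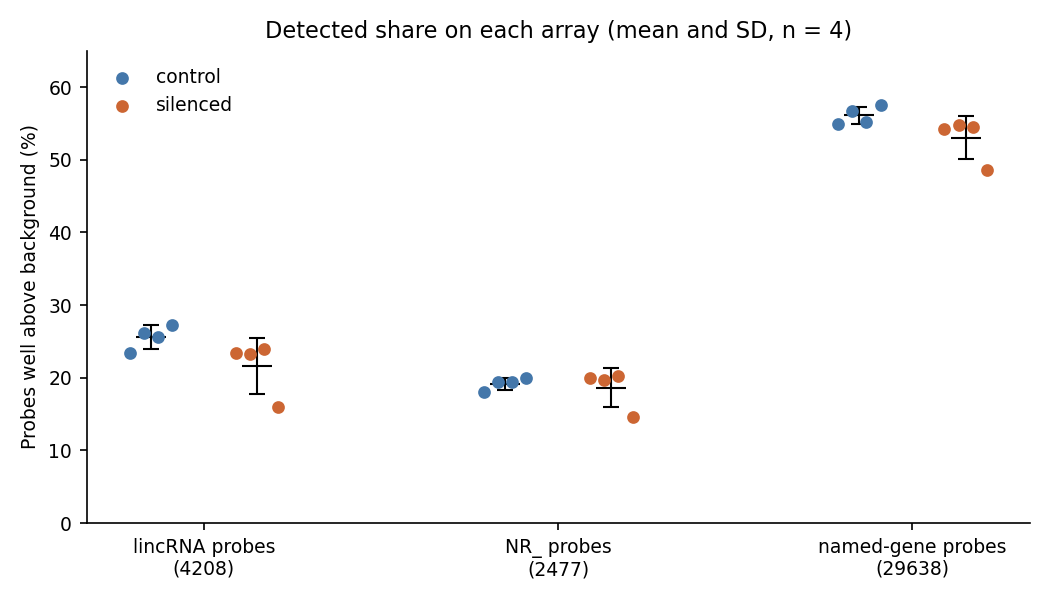
Percentage of probes marked well above background on each array, for lincRNA probes, probes with an NR_ accession and probes of named genes. Points are arrays, black marks are the mean and SD of 4 arrays, and the silenced array that sits apart in each class is replicate 4, at 15.9% of lincRNA probes.

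The main comparison asked which lincRNA probes differed between silenced and control cells. Of 4208 probes 1608 (38.2%) had at least 3 of 4 values in each group and were tested, against 63.3% of named-gene probes, and 2600 were too dim. In the fit over all 28649 testable probes, 330 lincRNA probes were called at a limma adjusted p under 0.05, which is 20.5% of those tested, beside 23.2% of all probes and 25.5% of named-gene probes. Higher in silenced cells were 83 lincRNA probes, 5.16% of those tested, beside 4.79% of all probes and 5.19% of named-gene probes. Lower were 247, or 15.4%, beside 18.4% of all probes and 20.3% of named-gene probes. The 330 probes lay in 320 combinations of region and strand. The groups did not overlap for 332 lincRNA probes (20.6% of those tested, beside 25.0% of all probes and 27.9% of named-gene probes). Of these 66 were higher (4.1%, beside 4.7% of all and 5.34% of named-gene probes) and 266 lower (16.5%, beside 20.3% and 22.6%). Restricted to probes detected on every array, 8.60% of 605 lincRNA probes were called higher, beside 8.75% of NR_ probes and 5.11% of 18324 over the whole array, and 15.7% lower, beside 12.8% and 18.4%. The total there was 24.3%, beside 21.6% and 23.5%. No difference between the classes was tested.

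How many calls were rises depended on the normalization. Of all called lincRNA probes 74.8% were lower as reported. Cyclic loess gave 276 higher and 240 lower (46.5% lower), a shift of each array to its 75th percentile 309 and 217 (41.3% lower), while keeping dim spots unmasked gave 230 and 261 (53.2% lower). Over all probes the same 3 settings gave 5416 higher and 5258 lower, 7135 and 4299, and 4990 and 4787. The share called was then 32.1% of lincRNA probes beside 37.3% of all, 32.7% beside 39.9%, and 11.7% beside 17.3%. Without silenced replicate 4 the counts were 189 and 253 (57.2% lower), and without control replicate 4, at the other end, 52 and 130. Over all probes these were 3572 and 5287, and 713 and 2995. The share called was 25.3% of lincRNA probes beside 29.9% of all without the former array, and 11.1% beside 12.8% without the latter. The median change was -0.23 for lincRNA probes, -0.20 for named-gene probes and -0.19 for all probes, so the lincRNA median was -0.04 relative to the array. With cyclic loess the medians of lincRNA and of all probes were 0.02 and 0.02. Of the 330 calls 289 were called in the same direction under cyclic loess, and 276 after the shift to the 75th percentile, and 0 were called in the opposite direction in either.

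The row of the slide moved with these values, since 3 controls and silenced replicate 1 lay in row 1 and control replicate 4 with the other 3 silenced samples in row 2. With the row as a block 51 lincRNA probes were called higher and 102 lower, 9.51% of those tested, and over all probes 534 higher and 2572 lower, or 10.8%. The median change of lincRNA probes was -0.04 within row 1 and -0.40 within row 2, and -0.03 and -0.32 over all probes. Of the 330 called probes 326 had the same sign of change in both rows. They were chosen as different on the same arrays, and each row held a single sample of 1 group, so this is no independent support. With the row as a block 152 of the 330 stayed called.

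The share called varied with the brightness of a probe, which is compared here only as a measure of precision and not of abundance. Among probes with a mean log2 signal up to 6, 13.2% of 607 lincRNA probes and 18.4% of 2386 named-gene probes were called. Between 6 and 8 the shares were 23.2% of 548 and 32.2% of 3515, between 8 and 10 they were 27.3% of 249 and 29.1% of 4193, and above 10 they were 27.0% of 204 and 23.1% of 8664. Over all probes the shares called in these classes, from dim to bright, were 15.5%, 27.2%, 26.8% and 22.8%. In both upper classes the lincRNA probes held more rises, 10.4% against 5.27% of named-gene probes between 8 and 10 and 9.31% against 5.29% above 10. Among all probes rises made up 5.48% and 5.09% of these classes. Of the NR_ probes 14.95% rose between 8 and 10 and 6.25% above 10. These shares are descriptions, and no difference between the classes of probes was tested.

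**Figure D2:**
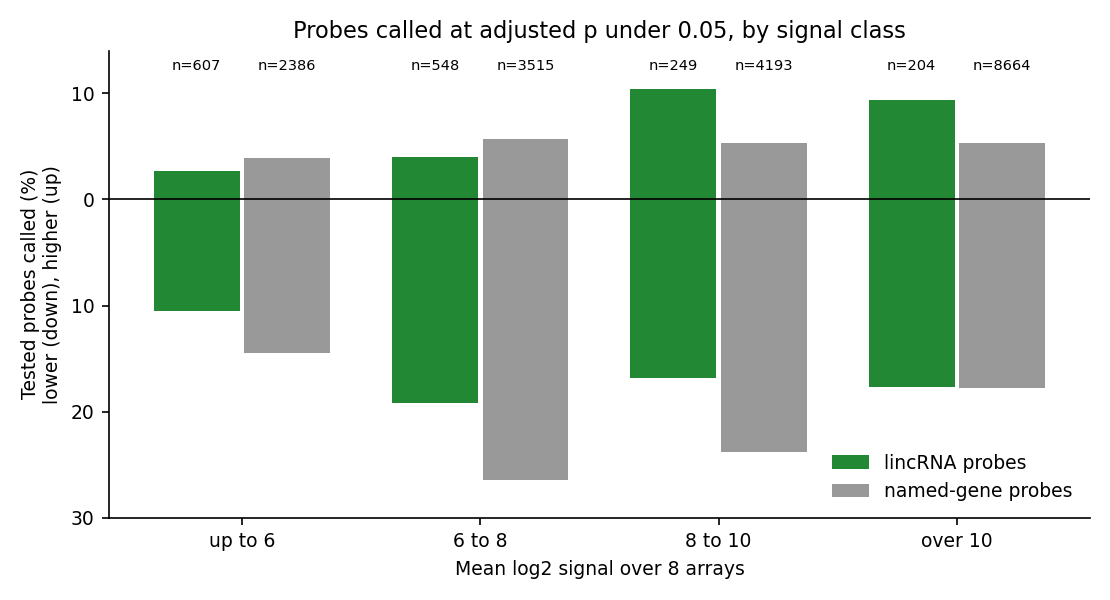
Percentage of tested probes called higher (upward bars) and lower (downward bars) in silenced cells, for lincRNA and named-gene probes in 4 classes of mean log2 signal, with the number tested above each bar. Rises made up 10.4% of lincRNA and 5.27% of named-gene probes in the class from 8 to 10.

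The called lincRNA probes were followed one by one where they were well above background on all 8 arrays, which held for 147 of the 330. Of these, 45 rises and 86 falls had no overlap between groups, and 5 of the 6 largest falls and the 6 largest rises are described. The largest fall, fall 1, was in a region of the reverse strand at chr15:102947390-102971082. Its log2 signal was 13.06, 13.44, 10.81 and 13.58 on control arrays 1 to 4 and 7.59, 7.76, 7.53 and 7.58 on silenced arrays 1 to 4. Every silenced value was below every control value, and control replicate 3 was the lowest control. The change was -5.10 (SE 0.54, limma adjusted p 0.000568), a 34.4-fold difference, and -5.70 without control replicate 3. The region also holds a probe of the noncoding gene D930007P13Rik on the same strand, detected on none of the arrays. The lincRNA probe on the other strand was well above background on all 8 arrays, with a change of -0.50 (limma adjusted p 0.299), and the nearest named gene, Smug1, a DNA glycosylase gene, changed by -0.18 (limma adjusted p 0.608).

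Fall 2 and one more fall came from regions that overlap on the forward strand of chromosome 14. The probe of fall 2, in chr14:26842169-26845456, had log2 signals of 9.53, 9.70, 8.79 and 9.74 in controls and of 7.23, 7.17, 6.67 and 6.75 in silenced cells, a change of -2.49 (SE 0.26, limma adjusted p 0.00059). Another probe, in chr14:26835914-26845344, read 8.12, 8.42, 6.70 and 8.49 in controls and 4.65, 5.86, 5.24 and 5.30 in silenced cells, where no array had it well above background. In controls it was brighter by at least 3.40-fold (limma adjusted p 0.00251). Both probes were lowest in control replicate 3 among the controls, and in neither did the groups overlap. The nearest named gene of both was Duxbl1, a double homeobox gene, whose nearest probe could not be tested. Whether the probes also bind mRNA from elsewhere in the genome was not tested.

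The probe of fall 4, in chr14:20893694-20903726 on the forward strand, read 10.48, 10.41, 10.40 and 11.07 in controls and 8.30, 8.66, 8.53 and 8.43 in silenced cells (change -2.11, SE 0.22, limma adjusted p 0.000538). The groups did not overlap, and control replicate 4 was the highest value. The opposite strand of the region of fall 4 was well above background on all 8 arrays too and had a change of 0.81 (limma adjusted p 0.0534). The nearest named gene was Kcnk5, a potassium channel gene, with a change of -0.79 (limma adjusted p 0.0714).

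Fall 5, in chr11:35810031-35810205 on the forward strand, was the brightest of the 6 falls in controls, with 13.39, 14.05, 13.74 and 13.72, and had 11.95, 12.36, 11.54 and 10.87 in silenced cells (change -2.05, SE 0.32, limma adjusted p 0.00246). Fall 6, in chr10:117021051-117038683 on the forward strand, had 9.49, 9.79, 10.85 and 9.87 in controls and 7.78, 8.53, 7.94 and 7.79 in silenced cells (change -1.99, SE 0.32, limma adjusted p 0.0027). The groups overlapped for neither. The region of fall 6 holds a pair of probes for the transcript AF221104 on the same strand, and neither of them was detected on a control array.

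Rise 1 was in a short region of the reverse strand, chr6:121035216-121035648. Its probe read 8.30, 9.11, 8.22 and 8.67 on control arrays 1 to 4 and 13.85, 13.72, 13.82 and 13.17 on silenced arrays 1 to 4. All silenced values lay far above all controls, with a change of 5.07 (SE 0.26, limma adjusted p 2.11e-05), a 33.5-fold difference. The nearest named gene was Mical3, which codes for an enzyme that oxidises actin, with a change of -0.97 (limma adjusted p 0.0547).

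Rise 2 was in a region of the forward strand at chr4:94742359-94822969 that also holds a probe of Junos, a noncoding transcript next to Jun. The lincRNA probe read 8.84, 9.30, 9.02 and 9.06 in controls and 14.01, 14.03, 13.93 and 13.60 in silenced cells. Values within a group were tight, and the change was 4.84 (SE 0.20, limma adjusted p 4.43e-06), a 28.6-fold difference. The region lies inside another lincRNA region of the same strand, chr4:94719930-94825776, whose 3 probes had changes of 1.24 (limma adjusted p 0.0144, detected on 1 control and all silenced arrays), 0.15 and -0.56 (limma adjusted p 0.841 and 0.193). The Junos probe was detected on no array. The nearest named gene, Jun, an immediate early transcription factor on the other strand, had a change of 0.54 (limma adjusted p 0.0722) and was not called.

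The probe of rise 3, in chr13:73472571-73483846 on the reverse strand, read 7.81, 8.24, 7.86 and 8.22 in controls and 12.06, 11.60, 11.82 and 9.62 in silenced cells (change 3.24, SE 0.48, limma adjusted p 0.00199). Silenced replicate 4 was the lowest of the silenced values and still above every control, and without it the change was 3.84. A probe of the noncoding gene D630045M09Rik in the same region and on the same strand had a change of -0.78 (limma adjusted p 0.1) and was not called. Rise 4, in chr7:86651948-86675223 on the forward strand, read 7.89, 8.10, 7.61 and 7.96 and then 11.40, 11.04, 11.45 and 10.31 (change 3.16, SE 0.28, limma adjusted p 0.000331). It was the one probe of the 12 that held a polyadenylation signal. Its nearest named gene was Polg, the mitochondrial DNA polymerase, which fell with a change of -1.56 (limma adjusted p 0.00376).

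Rise 5, in chr5:74487385-74497428 on the reverse strand, read 6.37, 7.38, 7.22 and 7.42 in controls and 10.15, 9.79, 10.20 and 9.33 in silenced cells (change 2.77, SE 0.30, limma adjusted p 0.000629). Rise 6, in chr14:115423660-115463160 on the forward strand, read 7.04, 7.85, 8.06 and 7.72 and then 10.42, 10.29, 10.50 and 9.74 (change 2.57, SE 0.28, limma adjusted p 0.000601). Opposite-strand probes were well above background on all 8 arrays in both regions and were not called, with changes of -0.20 (limma adjusted p 0.609) and 0.84 (limma adjusted p 0.146). As the values show, silenced replicate 4 was the lowest silenced array in each of the 6 rises, and every rise stayed above all controls on it.

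Apart from the overlapping regions at fall 2, where both probes fell alike, other lincRNA regions overlapped some of these on the same strand. Their probes, which lie elsewhere in the sequence, had smaller or opposite changes where they were detected. Beside rise 1 the probe of chr6:121035524-121061074 had a change of 0.08 (limma adjusted p 0.907). Beside rise 6 the probe of chr14:115366426-115441225, detected on all control and 2 silenced arrays, fell with a change of -1.39 (limma adjusted p 0.021), and that of chr14:115443612-115445950 had a change of -0.44 (limma adjusted p 0.447). Beside fall 5 the probe of chr11:35805295-35817263 fell with a change of -0.77 (limma adjusted p 0.0424). The probes of regions that overlap rise 4 and fall 6 were detected on no array.

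A further group of lincRNA probes was detected in 1 group only. Well above background on all control arrays and on no silenced array were 53 lincRNA probes, 1.26% of 4208, beside 0.927% of all probes and 0.989% of named-gene probes. The reverse held for 6 probes, 0.143% of lincRNA probes, beside 0.152% of all probes and 0.199% of named-gene probes. For these a fold is only a bound, taken from the mean of the bright group down to the detection limit of each dim array, or to the probe itself where that read higher. Over the 53 probes the median bound was 1.59-fold and the highest 4.15-fold.

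The highest bound in that set was of a probe of chr4:129497990-129515290 on the reverse strand, whose own position is unmapped in the files. It read 8.16, 8.93, 6.87 and 8.92 in controls and 6.16, 5.98, 4.83 and 5.76 in silenced cells, at least 4.15-fold higher in controls (limma adjusted p 0.00554). The other probe of that region and strand had a change of 1.55 (limma adjusted p 0.199). Next came chr6:100162756-100178531 on the reverse strand (at least 3.44-fold), 4612 bases from a probe of Rybp, a Polycomb protein gene with a change of -0.72 (limma adjusted p 0.0547). The last of the 4 after the chromosome 14 probe above was in chr15:77164450-77201325 on the reverse strand (at least 3.04-fold), whose nearest named gene, Apol7a of the apolipoprotein L family, was not well above background on control arrays and at least 2.24-fold higher in silenced cells (limma adjusted p 0.0084).

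The largest gain of all lincRNA probes was in chr11:97505439-97522274 on the forward strand (silenced only 1). The probe read 5.62, 5.39, 5.88 and 5.77 in controls, where no array had it well above background, and 11.59, 10.96, 11.69 and 11.15 in silenced cells. It was at least 39.2-fold higher in silenced cells (limma adjusted p 4.43e-06). Mllt6, a chromatin reader gene and the nearest named gene on the same strand, had a change of -0.83 (limma adjusted p 0.052). Silenced only 2, in chr14:33923944-34003394 on the reverse strand, read 9.21, 8.95, 8.64 and 8.06 in silenced cells and had a value on 1 control array, 5.04, so it had no test and a bound of at least 6.31-fold. Silenced only 3, in chr9:14480441-14483362 on the forward strand, read 4.22, 5.40, 4.82 and 4.58 in controls and 9.08, 9.07, 9.18 and 7.34 in silenced cells (at least 6.11-fold, limma adjusted p 0.000671). The probe of an overlapping region on that strand, chr9:14460976-14488051, fell with a change of -0.67 (limma adjusted p 0.0433). Silenced only 4, in chr15:78404840-78412046 on the reverse strand, had a bound of at least 3.50-fold (limma adjusted p 0.00204). No values overlapped in these probes where both groups had any. The remaining probes of the set, in chr6:39205913-39248468 (at least 2.33-fold, not tested) and chr11:117835849-117842574 (at least 2.19-fold, limma adjusted p 0.00153), both on the reverse strand, were named after their values were seen. The region of silenced only 4 holds a probe of the noncoding gene Gm36738 that was detected on no array. Its own sequence lies, letter for letter, in the RefSeq promoter window of Gm36738 (build GRCm38).

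**Figure D3:**
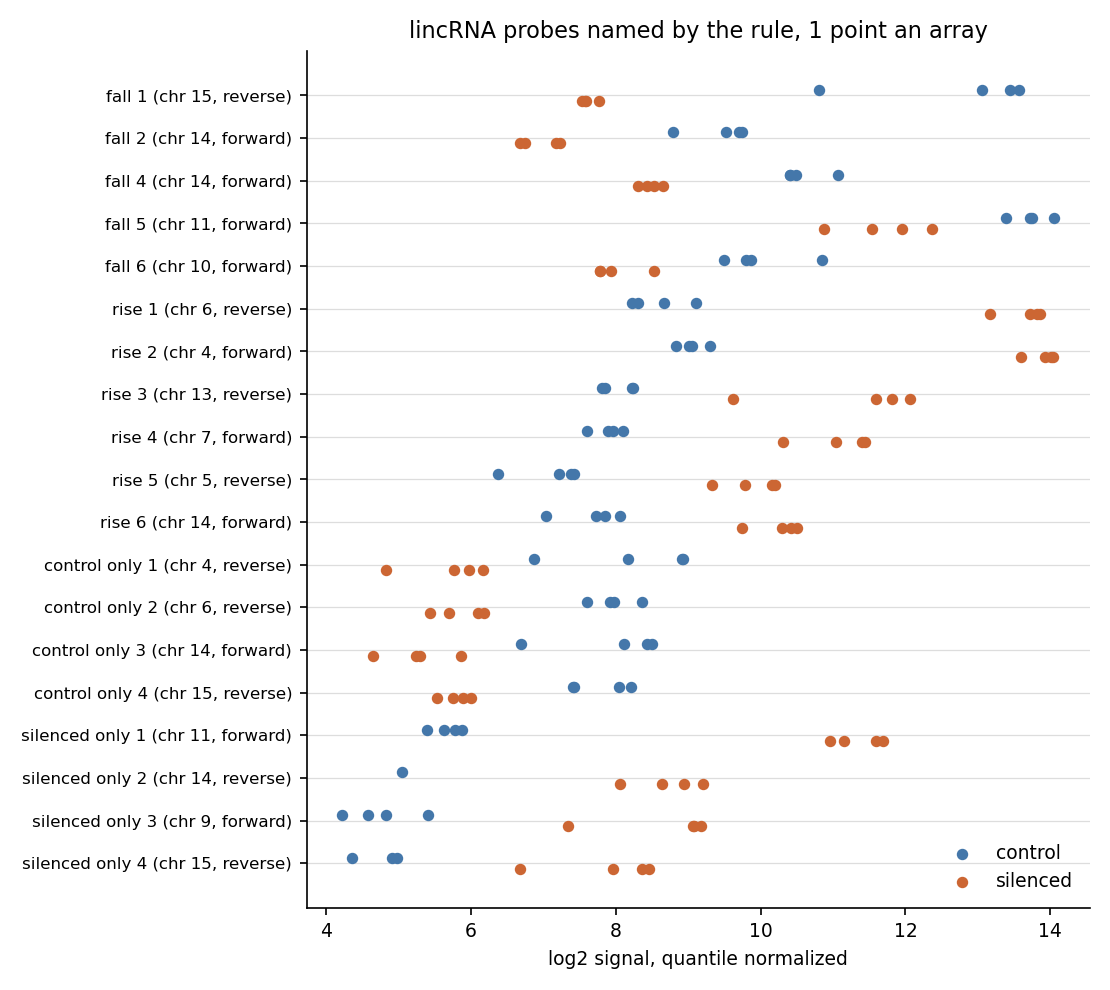
Log2 signal, quantile normalized, of lincRNA probes on each array, blue for control and orange for silenced: 5 of the 6 largest falls, the 6 largest rises and, below, 4 probes well above background in control samples only and 4 in silenced samples only, with the values of the other group shown where the spot had one. Missing points are arrays on which the spot was not positive and significant, and for fall 1 control replicate 3 stands apart from the other controls at 10.81.

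The brightest lincRNA probes were not called as reported, and 3 of them were called under another setting. The 5 with the highest mean signal were in chr17:17481706-17482457 (reverse), chr17:48068261-48087905 (forward), chr11:22681800-22707775 (reverse), chr6:116123643-116124550 (forward) and chr1:193875525-193978800 (reverse), and none was saturated on any array. Bright 1 read 16.65, 16.62, 16.83 and 16.68 in controls and 16.61, 16.68, 16.64 and 16.82 in silenced cells, a change of -0.01 (limma adjusted p 0.975). Bright 2 read 16.01 to 16.09 and then 16.30 to 16.39, which did not overlap but gave a change of 0.31 (limma adjusted p 0.213). The other 3 had changes of -0.06, -0.20 and -0.45 (limma adjusted p 0.857, 0.45 and 0.13), and for those of -0.20 and -0.45 the groups did not overlap either. Bright 2 was called after the shift to the 75th percentile (limma adjusted p 0.00295), without masking (0.000504) and with a robust trended prior (0.0278). The probe in chr1:193875525-193978800 was called under cyclic loess (limma adjusted p 0.0394) and with the robust prior (0.00924), and that in chr6:116123643-116124550 without masking (0.0418). Bright 1 to 3 held a polyadenylation signal. Whether the signals of the 5 brightest probes include mRNA of genes elsewhere in the genome was not tested.

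Regions with probes on both strands allowed the strands to be compared. Of 804 such regions, by the brightest probe of each strand, 36 had both strands detected on all 8 arrays, 142 had 1 strand detected on all 8 and the other on none, and 274 had neither strand detected on any array. The shares that follow count any probe of a strand. The share of regions with both strands detected was 9.83%, 11.7%, 11.4% and 12.4% on control arrays 1 to 4 and 10.1%, 9.83%, 9.83% and 5.60% on silenced arrays 1 to 4. The groups overlapped, with means of 11.3% ± 1.10 (SD, n = 4) and 8.83% ± 2.16 (SD, n = 4) (exact two-sided permutation p 0.114, adjusted 0.229). Without control replicate 1 the difference was -3.03 points, with an exact two-sided permutation p of 0.0286. Without silenced replicate 4 it was -1.44 points.

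In 186 regions the brightest probe of each strand could be tested, and only that probe of a strand is counted here. Neither strand was called in 113 regions, 1 strand in 70 and both in 3, and in no region were the strands called in opposite directions. Between the strands the changes had a correlation across regions of 0.07 (Pearson's r, n = 186 regions sharing the same 8 arrays), and the median absolute difference was 0.80 log2. The 3 regions with both strands called were all lower. They were chr14:33895294-33923644 (-1.50 forward), chr4:56013597-56020622 (-1.28 forward) and chr8:124569775-124639500, named after their values were seen. All 3 reverse-strand probes were well above background on no silenced array, so each has only a bound, with controls at least 1.02-fold, at least 1.01-fold and at least 1.71-fold brighter. The forward-strand probe of the chromosome 8 region was well above background on 1 control array alone, and no fold is given for it.

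Several tested probes of the same region and strand were available for 79 combinations with 168 probes. The range of their changes had a median of 0.48 log2. All probes were called the same way in 6 combinations, 4 lower and 2 higher, some in 19, none in 51, and in 3 they were called in opposite directions. Both probes fell in chr13:74971657-75025450 on the reverse strand, with changes of -2.42 (SE 0.34) and -2.57 (SE 0.28, limma adjusted p 0.000671), each detected on 3 silenced arrays. Both probes of chr2:173421598-173485043 on the reverse strand rose, by 1.57 (SE 0.37) and 1.15 (SE 0.30, limma adjusted p 0.0237), as did both of chr5:34696192-34722842 on the forward strand, by 0.79 and 0.98 (limma adjusted p 0.0419 and 0.0495). Falls were shared in chr6:142915873-142938323 (forward; -1.74 and -1.48, detected on 1 and 2 silenced arrays), chr12:21548850-21568550 (reverse; -1.21 and -1.23, also detected on 1 and 2 silenced arrays) and chr8:72105642-72105922 (reverse; -1.02 and -0.89). These regions were named after their values were seen.

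The mixed pairs were also named after their values were seen. Mixed pair 1 lay in chr16:29942664-29948289 on the reverse strand, where the probe at 29946545 was called lower and the neighbouring one at 29946617 rose by 1.91. The first read 4.86, 6.21, 6.53 and 5.50 in controls and 4.94, 4.45, 4.74 and 3.95 in silenced cells. It was well above background on 2 control arrays and no silenced array, so the size of its difference is not known and the opposite directions of the pair rest on a probe near background. The second read 8.62, 9.62, 8.72 and 9.19 and then 11.28, 11.06, 10.85 and 10.59. Pair 2 was in chr2:167388900-167402475 on the reverse strand, where 1 probe was detected on 2 control arrays and the other on 2 silenced arrays, and each on none of the other group. Mixed pair 3 was in chr8:126268510-126290810 on the forward strand, and both of its probes were detected on all 8 arrays. The probe at 126278234 read 6.57, 7.31, 7.96 and 6.98 in controls and 9.05, 8.85, 8.51 and 7.97 in silenced cells (change 1.39, limma adjusted p 0.0172). The one at 126278354 read 7.53, 8.13, 7.62 and 7.72 and then 6.95, 7.34, 6.90 and 6.34 (change -0.87, limma adjusted p 0.0348).

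**Figure D4:**
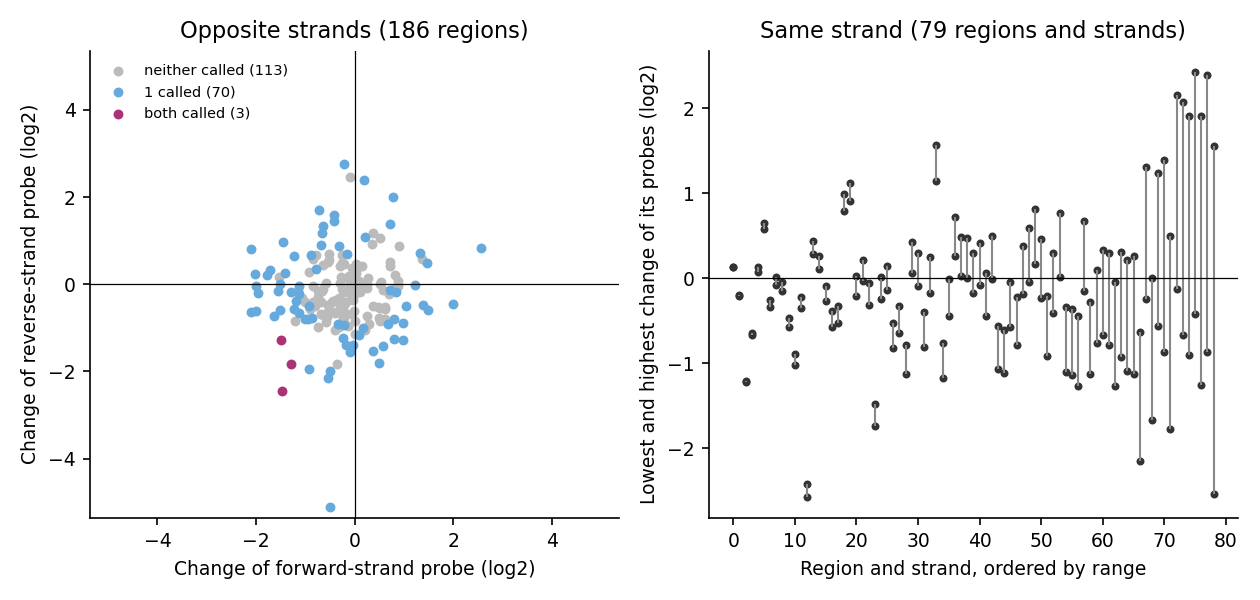
Left, change of the brightest forward-strand and the brightest reverse-strand probe of 186 regions, coloured by how many of the strands were called. Right, lowest and highest change among the probes of 79 combinations of region and strand, ordered by their range, which had a median of 0.48 log2.

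At most 3 probes of a combination were tested, which held for 10 combinations, and 4 of their probes were called. The 5 described are those that come first by name, and none of their 15 probes was called. They were chr12:55844075-55898175 (reverse, with changes of 0.41, -0.08 and -0.00), chr14:77511189-77522852 (forward; 0.15, -0.04 and 0.59), chr15:102026122-102033725 (reverse; -0.58, -0.46 and -0.56), chr17:95255725-95272425 (reverse; 0.33, -0.43 and -0.66) and chr18:78188082-78194070 (forward; -0.40, -0.81 and -0.41). The first holds probes of Snx6, a gene of endosomal sorting, on the same strand, and these changed by 0.07 and -0.25 without being called.

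Where 2 tested probes lay at least 300 bases apart, the 5′ probe was set against the 3′ probe of the same region and strand. Over 39 pairs the median difference between them was -0.20, 0.06, -0.10 and 0.00 log2 on control arrays 1 to 4 and 0.05, -0.04, -0.06 and -0.18 on silenced arrays 1 to 4. The groups overlapped, with means of -0.06 ± 0.12 and -0.06 ± 0.10 (SD, n = 4 each; exact two-sided permutation p 0.971, adjusted 0.971). The 5′ probe had the lower change in 25 pairs (64.1%). With pairs at least 1000 bases apart (26 pairs) the difference between groups was 0.31 (exact two-sided permutation p 0.114).

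Base composition was not used to choose the members. Their median GC content was 45%, and that of named-gene probes 43.3%. A polyadenylation signal was in 280 lincRNA probes (6.65%) and in 14.1% of named-gene probes. Of the 119 tested lincRNA probes with the signal 7 rose and 8 fell, with a median change of 0.00, and of the 1489 without it 76 rose and 239 fell, with a median of -0.26. Among named-gene probes the medians were 0.20 with the signal and -0.29 without it. Lower calls became more frequent with GC content, from 11.6% of 553 tested lincRNA probes between 35% and 45% GC to 14.3% of 690 between 45% and 55% and 23.7% of 346 at 55% or more, with medians of -0.10, -0.26 and -0.43. Higher calls made up 5.79%, 3.48% and 7.23% of the same classes. In named-gene probes the same classes held 14.03%, 26.8% and 34.6% lower calls and 5.41%, 5.08% and 4.11% higher calls. The median change moved with GC content and the polyadenylation signal in both classes of probes, and their part in the lincRNA results was not tested.

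By chromosome the share of tested lincRNA probes called ran from 11.9% on chromosome 18 (67 tested) to 34.0% on chromosome 15 (53 tested, 5 higher and 13 lower), outside the stretch that was left out. Chromosome 15 also had the lowest median change, -0.46, and chromosome 16 the highest, 0.01. These are descriptions over 37 to 123 tested probes a chromosome.

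The nearest probe of a named gene lay at a median distance of 34094 bases, with quartiles of 12534 and 80899. Within 5 kb and on the same strand 18.7% of 209 lincRNA probes were detected on all 8 arrays, and on the other strand 8.90% of 236. The change of a lincRNA probe and that of its nearest named gene had a correlation across probes of -0.19 within 5 kb on the same strand (Pearson's r, 99 pairs over 82 genes; Spearman's rho -0.09) and between -0.02 and 0.11 (Pearson's r) in the other 5 classes of distance and strand. The pairs share the same 8 arrays and some share a gene. Both partners were called in 4 of 166 pairs within 5 kb (2.41%), in 29 of 749 at 5 to 50 kb (3.87%) and in 31 of 672 further away (4.61%), and the 3 described here were named after their values were seen. A lincRNA probe in chr1:4895831-4896942, well above background on 1 silenced array, fell by 1.30 beside Rgs20, a regulator of G protein signalling (-1.34). One in chr9:114412295-114418384, well above background on 3 control arrays and no silenced array, was at least 1.08-fold higher in controls, beside Trim71 (-0.85), a gene of stem cells and early development. Both were on the strand opposite to the gene. The other pair lay on the same strand, 4177 bases apart, where a lincRNA probe in chr4:155564927-155571580, well above background on all control arrays and no silenced array, was at least 1.92-fold higher in controls (limma adjusted p 0.000743) and Isg15, an interferon-induced ubiquitin-like modifier, rose by 3.87 (limma adjusted p 0.000241).

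Other probes of the array lay inside some regions. Of 3846 combinations of region and strand, 503 (13.1%) held any other annotated probe on the same strand and 558 (14.5%) on the other. An mRNA probe lay on the same strand in 71 (1.85%) and on the other in 96 (2.50%), and a probe with an NR_ accession in 137 (3.56%) and 145 (3.77%). Where both could be tested, the change of the lincRNA probe and that of any other probe inside its region had a correlation of 0.07 on the same strand (Pearson's r, 153 pairs) and -0.02 on the other (152 pairs). In 5 cases the region held, on its strand, a probe of a lncRNA on a list of 40 described further on. In chr11:3538125-3554450 on the reverse strand, which holds Tug1, a lncRNA known for its effects on chromatin and mitosis, the lincRNA probe was near background at 5.20, 5.53 and 6.02 in controls 2 to 4 and 5.36, 5.48, 5.73 and 6.57 in silenced cells (change 0.20, limma adjusted p 0.716). Probes named Tug1 and TUG1 in that region fell, with changes of -1.19 (SE 0.34, limma adjusted p 0.0328) and -1.36 (SE 0.20, limma adjusted p 0.00185), while Gm10216 on the same strand rose with a change of 2.16 (SE 0.28, limma adjusted p 0.00121). On the opposite strand the lincRNA probe fell with a change of -1.78 (limma adjusted p 0.0068).

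The region of Gas5, a host gene of small nucleolar RNAs, at chr1:162965309-162970704 on the forward strand, read 9.08, 9.45, 8.63 and 9.43 in controls and 8.43, 8.58, 8.78 and 7.65 in silenced cells, which overlapped (change -0.78, limma adjusted p 0.0851, and 0.0422 without control replicate 3). The Gas5 probes there had changes of -0.20 and 0.06 and were not called. The other 3 regions lay in the imprinted noncoding cluster of Rian and Mirg on chromosome 12 (chr12:110842154-110883594, chr12:110896603-110940553 and chr12:110944403-110988678, forward strand), and their lincRNA probes were well above background on no array.

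Named lncRNAs served as a background. Of the list of 40, 33 were on the array and 28 could be tested, of which 1 was called higher and 4 lower, with a median change of -0.04 beside -0.19 for all probes. Of all tested probes 4.79% were higher and 18.4% lower. Each gene is counted by its brightest probe, and that of H19 was not called, though 1 of its 2 probes was lower. The rise was Miat, a nuclear lncRNA, at 4.62, 4.51, 5.87 and 4.93 in controls, where it was not well above background, and 7.51, 7.52, 7.96 and 6.48 in silenced cells. The falls were Nctc1, a lncRNA of the H19 and Igf2 locus in muscle (-1.49), Dleu2, a microRNA host gene (-1.33, detected on 1 silenced array), Tug1 (-1.19) and Snhg4, a host gene of small nucleolar RNAs (-1.17). Of 39 genes of the nuclear exosome, its adaptors and Integrator, 38 were on the array, all were tested, 0 were higher and 10 lower, and their median change was -0.23, beside -0.19 for all probes, of which 18.4% were lower, and 20.3% lower among named-gene probes. The list was not tested against other genes. The 6 largest of these falls were in Srrt, a partner of the cap-binding complex (-2.07), the Integrator subunit genes Ints4 (-1.51), Ints5 (-1.40), Ints1 (-0.97) and Ints8 (-0.88), and the exosome subunit gene Exosc1 (-1.09). Their part in the lincRNA changes was not tested.

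**Figure D5:**
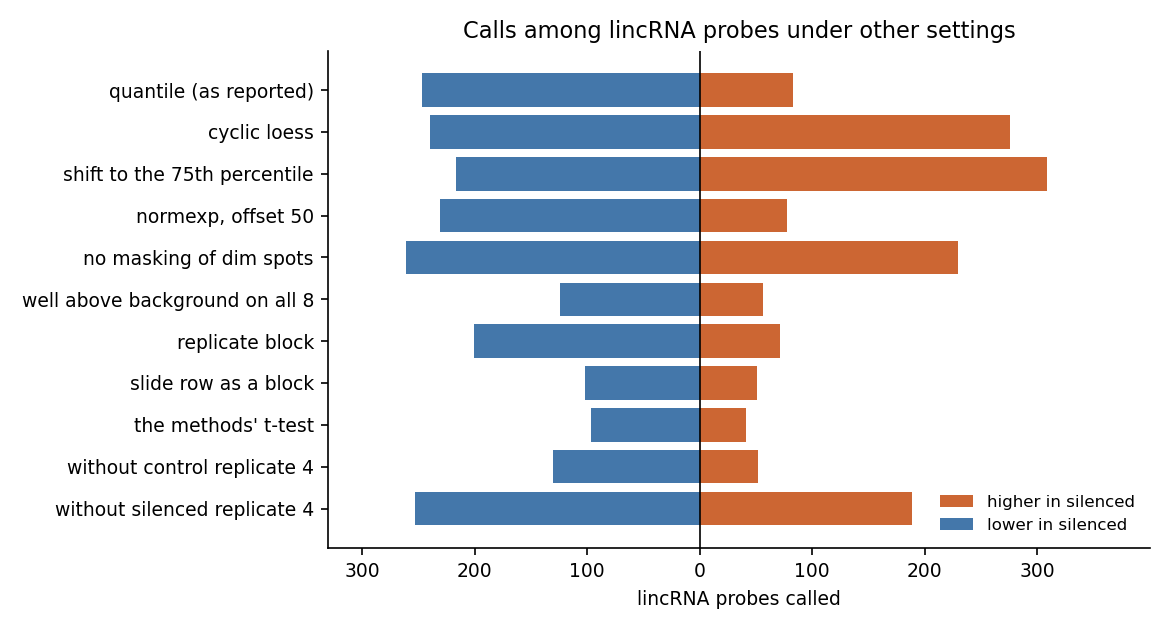
Number of lincRNA probes called higher (right) and lower (left) in silenced cells as reported and under other settings of the fit. The count of lower probes ran from 97 to 261 and that of higher probes from 41 to 309 over the settings shown.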

How the data were processed

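Fluorescent cRNA made from the RNA of 8 C2C12 samples was hybridised to 1-colour mouse arrays. The deposited scanner output gives each spot's linear intensity, background-subtracted by Feature Extraction (12.0.0.7 per the file headers, 10.7.3.1 per the labels). The series table the authors deposited holds normalized intensity values too, and none for a lincRNA probe. The flags (units of 0 or 1) are also those the authors deposited.

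Following the study's methods, spots not positive and significant were masked, log2 values of the deposited intensities were quantile normalized, and replicate spots averaged. Control spots and outlying spots were left out. The 28649 probes left with 3 or 4 values per group went into limma 3.58.1 (lmFit and eBayes; R 4.3.3) by group alone, with Benjamini-Hochberg adjustment over all of them at 0.05. This masking favours probes that are bright in both groups. Single values were compared by exact two-sided permutation tests, for which 4 against 4 arrays give no p below 0.0286. Precision is limited by the number of arrays.

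Probes to name were chosen by rule: the 6 largest rises and falls among called probes well above background on all 8 arrays without overlap, the 5 brightest, up to 4 a direction detected in 1 group only, regions whose strands were both called, in opposite directions (none), regions that hold a listed lncRNA, and the 5 combinations of region and strand with the most tested probes, ties taken by name. Of each gene list up to 6 called genes were named. The members, gene lists and rules were chosen with earlier results of these data known. On simulated data for silenced against control (28649 probes, 200 changed), the fit found 77% of changes of 2 log2 and 7% of changes of 1 log2. Its 89 calls included 5 unchanged probes. Far fewer probes were changed there than the 6642 called in the data, and the adjustment is stricter where few are changed. The shares found are therefore not those of the reported fit. The alternatives were another normalization or background correction, other filters on dim spots, the replicate number or slide row as a block, another prior, the methods' t-test (unequal variances, as the study gives for the Pvt1 arrays; adjusted here by Benjamini-Hochberg, where its fiber comparison used permutation and Bonferroni), leaving out each array, 1 probe a region and strand, and another detection flag. Values within each slide row were added after seeing the data. Exons and introns were not analysed here, and 1 of the 6 falls and 1 neighbouring pair are not reported here. Figures were drawn with matplotlib 3.10.9.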

Additional observations from a re-analysis of the deposited data

Results flagged for a closer look

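In 69 groups of 4 samples among the values of the report, 5 held a sample whose gap to the nearest other exceeded Dixon's critical share of the group's range, and about 1 in 20 would do so by chance. Silenced replicate 4 had 15.9% of lincRNA probes well above background, against 23.3% to 24.0% on the other silenced arrays. On the same array both strands were detected in 5.60% of regions, against 9.83% to 10.1%. Its log2 signal for the probe in chr9:14480441-14483362, well above background in silenced cells only, was 7.34, against 9.07 to 9.18. For the probe in chr17:48068261-48087905, among the brightest, it was 16.3, against 16.38 to 16.39. Control replicate 4 had a log2 signal of 11.07 for fall 4 in chr14:20893694-20903726, against 10.40 to 10.48 in the other controls.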

How the results depend on the processing

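Cyclic loess, the shift to the 75th percentile and no masking gave 276, 309 and 230 lincRNA probes higher, where 83 were reported. The slide row as a block gave 51 higher and 102 lower, the methods' t-test with Benjamini-Hochberg adjustment 41 and 97 (105 and 329 at an unadjusted p under 0.05), and probes well above background on all 8 arrays 124 lower, of 605 tested (29.8% called, beside 27.8% of all such probes). The adjusted t-test called 8.58% of tested lincRNA probes beside 11.9% of all, and the unadjusted one 27.0% beside 31.5%. Leaving out 1 array gave 52 to 189 higher, 130 to 266 lower and a median change between -0.31 and -0.08. The share called then ran from 11.1% to 25.3% of lincRNA probes and from 12.8% to 29.9% of all probes. Counts of higher probes moved by over 1.5 times without control replicate 1 (53), control replicate 4 (52), silenced replicate 1 (52), silenced replicate 3 (54) and silenced replicate 4 (189), and counts of lower probes without control replicate 2 (134) and control replicate 4 (130). The difference in detected share ran from -4.73 to -2.05 points, that in the gap to named genes from 0.46 to 1.22 points, and that in regions with both strands from -3.03 to -1.44 points. With the positive and significant flag the gap widened by 4.13 points (exact permutation p 0.0286), and by 2.67 without silenced replicate 4. The 5′ minus 3′ difference ran from -0.044 to 0.046 without 1 array, so its sign was not settled. The cause of these shifts was not tested.

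With the replicate number as a block 71 lincRNA probes were higher and 201 lower, or 16.9% of those tested beside 17.5% of all probes. The median change was -0.24, and the detected shares gave an exact sign-flip p of 0.25. Samples of the same number correlated at -0.04, 0.19, 0.22 and 0.06, and only numbers 2 and 3 exceeded 0.1, so the numbers were not taken to pair the samples. The block changed no call of a named probe.

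Of 31 named probes with a fit, 7 changed sign somewhere, none of them called as reported. In 16 comparisons a probe gained a call, among them bright 2 (also by the methods' t-test, adjusted p 0.0125) and the probes in chr6:116123643-116124550 and chr1:193875525-193978800, whose values are given above. The signs turned for bright 1 (0.33 after the shift to the 75th percentile, 0.013 with normexp, and -0.058 to 0.034 without 1 array), bright 3 (0.38 after the shift, -0.14 to 0.013 without 1 array), the probe in chr6:116123643-116124550 (0.25 after the shift), that in chr1:193875525-193978800 (0.0029 after the shift), the Tug1 region (-0.048 with the slide row, -0.056 to 0.42 without 1 array), chr14:77511189-77522852 (-0.054 to 0.37 without 1 array) and chr18:78188082-78194070 (0.013 with the slide row). Rise 3 and the probe in chr4:129497990-129515290 lost their call under the methods' t-test alone (adjusted p 0.0601 and 0.0532). The series table gave no value for a lincRNA probe. Masked and dim spots limit the rest: 2600 probes were not tested, and of 330 called probes 94 that fell were detected on no silenced array and 11 of these on no array at all, and 23 that rose on no control array and 5 of these on none.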
